A study of Mus musculus with 6 samples.

Results

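The genes described here are grouped by name as genes of the axoneme, the moving core of motile cilia. They are the genes whose symbol starts with Dnah, Dnai, Cfap, Rsph or Tekt followed by a digit, together with Foxj1. The rule goes by gene symbol alone and also takes in genes outside the axoneme itself, such as Foxj1, a transcription factor. It leaves out Cfap300, a Cfap gene that did pass, with a difference in log2 signal of -1.09 and limma's adjusted p = 0.00996. Of 22180 genes tested, 55 met the rule, with 58 probe sets of 41345 in all: 31 Cfap genes, 11 Dnah genes, 7 Rsph genes, 5 Tekt genes and Foxj1. For Dnai followed by a digit the number was 0, which does not show whether such genes were measured under other symbols. Dnah7b, Dnah7c and Cfap54 were seen on probe sets shared with other genes, and these were not used.

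The RNA came from whole vomeronasal organs (VNOs), the paired pheromone-sensing organs of the mouse nose, at postnatal day 17. The 3 wild-type and 3 AP-2e null samples gave 1 array each. AP-2e is the transcription factor encoded by Tfap2e, and the labels used here do not name the null allele, the strain or how many animals each sample pools. The p-values therefore measure the spread between these samples. Values are log2 signals, where a difference of 1 is a doubling, and the array medians lay between 4.997 and 5.079. The number of arrays limits the precision. In bulk tissue, fewer ciliated cells and less RNA per ciliated cell cannot be told apart.

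A motile cilium beats because dynein arms walk along a ring of microtubule doublets. Outer arms supply power and inner arms shape the beat. Radial spokes carry signals from a central pair of microtubules to the arms, and tektins and other inner proteins strengthen the doublet walls. Foxj1, a forkhead transcription factor, switches on this gene set together with RFX factors. In the nose, multiciliated cells of the respiratory-type epithelium carry such cilia. Vomeronasal sensory neurons end in microvilli instead, and olfactory neurons bear sensory cilia that do not beat.

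The organs held RNA of multiciliated cells. Foxj1 averaged 8.87 ± 0.27 over the wild-type organs and 8.46 ± 0.20 over the null ones (SD, n = 3 per genotype), against an upper quartile of 7.002 over all probe sets. The multiciliated markers Ccdc153, Tmem212 and Sntn lay above that quartile too, with wild-type means of 9.18, 9.20 and 9.45. Deup1 lay just above it at 7.23, and Mcidas lay under it at 6.36. In the list of 14 multiciliated markers, Pifo, Meig1 and Tubb4b lay under it, at 6.39, 6.80 and 5.37, and the others above. Sperm tails use many of the same proteins, but of 5 spermatid markers Prm1, Tnp1, Tnp2 and Akap4 had means between 3.40 and 4.04, close to the lower quartile of 3.62. The fifth, Odf1, stood at 10.98. Of the 55 axoneme genes, 24 had means over the upper quartile, 22 lay between it and the median, and 9 lay under the median, among them Dnah17, Tekt3 and Cfap97d1. Only Cfap97d1, at 2.62, was under the lower quartile.

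RFX factors bind X-boxes, so the promoters of these genes were searched for GTTGCC, an X-box half-site, on both strands. RefSeq windows of 300 bases, which start 250 bases before a gene's start, were matched for 47 of the 55 genes. The half-site stood in 16 of these (34.0%), against 14.1% of 27025 genes with such windows. The X-box palindrome, which is this half-site with 1 place left free, a spacer of any 2 bases and its mirror image, stood in 2 of the 47 (4.3%), Cfap298 and Cfap20dc, and in 0.529% of all. It contains the half-site in part of its forms, so the searches overlap. The forkhead core TGTTTAC stood in 4 (8.5%), against 4.05% of all. A match describes letters and not binding, and no test was made.

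The sequences below are the stretches around the first half-site in the promoters of 5 axoneme genes. A half-site stood in the windows of 6 genes whose 250 bases before the start overlapped no annotated gene. The 5 shown held it fully before the start, and they stand in order of p. The sequences run 5′ to 3′ on the gene's strand, from RefSeq for build GRCm38.p6. Half-sites on either strand that lie fully before the gene's start are in capitals. For Dnah10 this holds for 1 of the 2 half-sites in its window. Cfap298 had 4 half-sites before its start and Tekt2 had 2, and some of these lie outside the stretches shown. Cfap298 is shown with the full palindrome.
Cfap58, chr19:47937613-47937698, plus strand: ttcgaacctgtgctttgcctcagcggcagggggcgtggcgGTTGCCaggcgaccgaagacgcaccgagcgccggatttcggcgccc
Dnah10, chr5:124725025-124725084, plus strand: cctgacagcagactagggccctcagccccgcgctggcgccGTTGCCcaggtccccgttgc
Cfap298, chr16:90934992-90935077, minus strand: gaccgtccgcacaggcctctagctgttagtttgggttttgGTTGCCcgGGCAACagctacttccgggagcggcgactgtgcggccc
Tekt2, chr4:126325739-126325824, minus strand: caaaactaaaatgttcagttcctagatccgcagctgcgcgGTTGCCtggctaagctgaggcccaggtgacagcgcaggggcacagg
Cfap20, chr8:95434918-95435003, minus strand: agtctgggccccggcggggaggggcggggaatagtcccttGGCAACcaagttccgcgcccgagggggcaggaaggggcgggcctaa

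None of these 55 genes, which do not include Cfap300, passed between the genotypes, yet nearly all had lower means in AP-2e null VNOs. Of 55 genes, 53 were lower, or 96.4%, while 50.2% of all genes tested were lower. The median difference was -0.25 on the log2 scale, against 0.00 over all genes, and single differences ran from -0.48 to 0.02. With limma, 0 of the 55 passed at an adjusted p under 0.05, and the smallest adjusted p was 0.803. Over all genes 0.216% passed as lower and 0.00902% as higher. Of the 55, 7 (12.7%) were lower with an unadjusted p under 0.05 and 0 were higher, where 2.49% of all genes were lower and 1.9% were higher at that level. The wild-type and null values did not overlap for 6 genes (10.9%), all lower, against 3.64% of all genes lower and 3.42% higher. The genes share arrays and varied together, so these counts are not independent. The 95% confidence interval reached below -1, a halving, for 1 gene only, Cfap44 (-1.06 to 0.54).

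**Figure D1:**
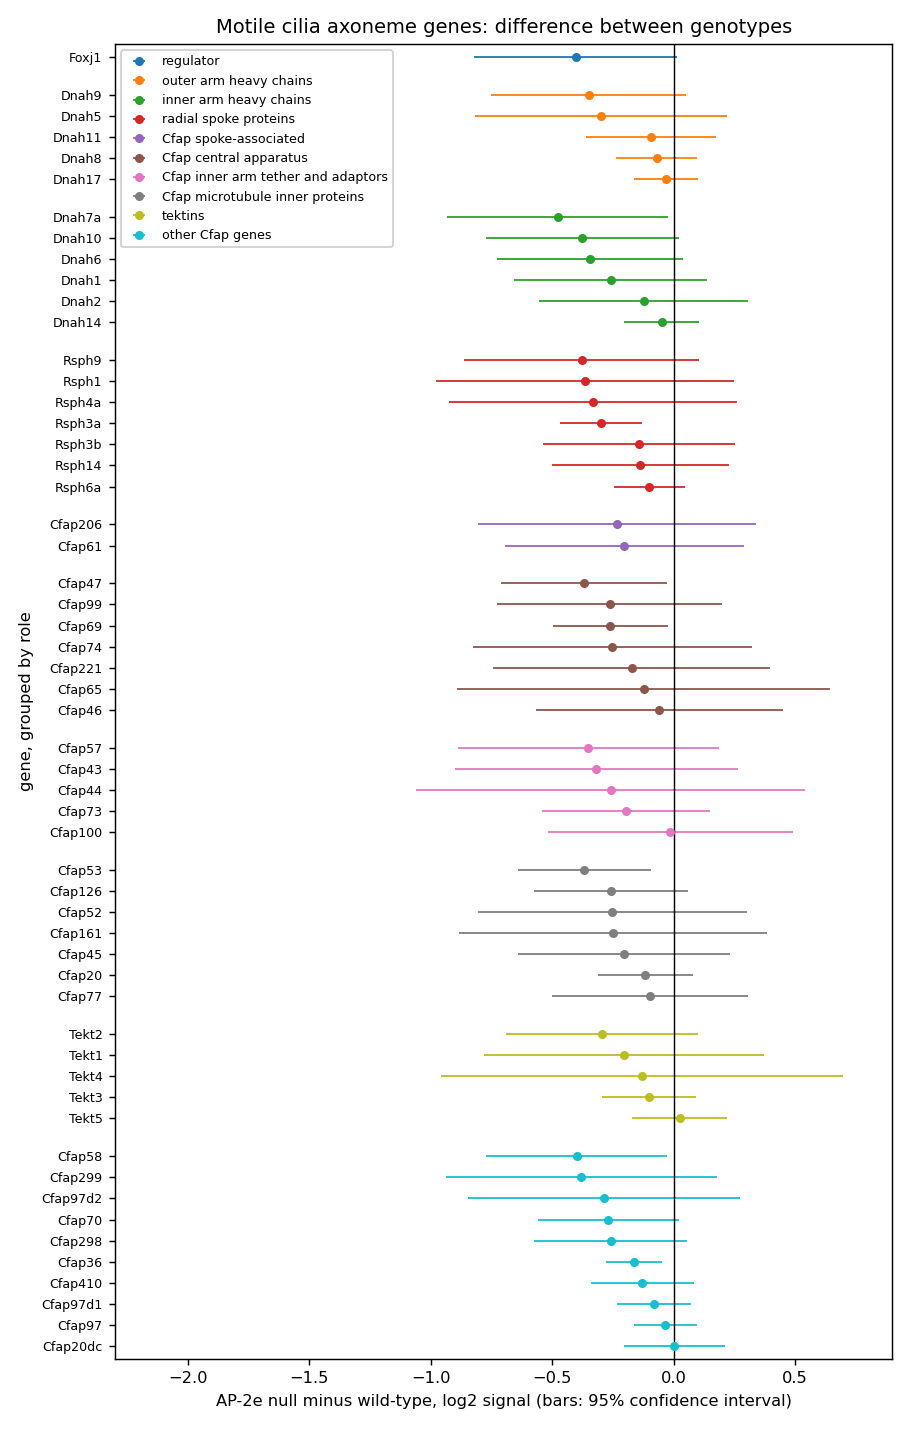
Difference between AP-2e null and wild-type VNOs for the 55 axoneme genes, in log2 signal on the horizontal axis, with 95% confidence intervals from limma as bars (3 arrays per genotype) and genes grouped by role. Nearly all points lie left of 0, between -0.48 and 0.02, and most bars cross 0.

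Foxj1, the regulator of the programme, was lower by 0.40 in mean without passing. Its signal was 8.94, 9.10 and 8.57 in the wild-type replicates, in order, and 8.29, 8.42 and 8.68 in the null ones. The groups overlapped, because wild-type replicate 3 lay below AP-2e null replicate 3. The difference was -0.40 (SE 0.17, 95% interval -0.82 to 0.01, adjusted p = 0.873 in limma).

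Outer dynein arms were represented by 5 heavy chains, the motor subunits, and all 5 had lower means with a median difference of -0.10. Dnah9, which powers the outer part of respiratory cilia, had the smallest p among them. It stood at 8.34, 8.28 and 7.77 in the wild-type replicates and at 7.69, 7.85 and 7.80 in the null replicates. Wild-type replicates 1 and 2 were high and the third lay inside the null range, for a difference of -0.35 (SE 0.16, adjusted p = 0.873). Dnah5, an outer arm partner of Dnah9 and a gene mutated in primary ciliary dyskinesia, differed by -0.30, and Dnah11 by -0.10. Dnah8 and Dnah17, known from sperm flagella, differed by -0.07 and -0.03. Dnah17 gave 3.86 on every array but wild-type replicate 2, at 3.96.

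Inner dynein arms had 6 heavy chains, all lower in mean, with a median difference of -0.30. Dnah7a had the most negative difference of the 55 genes, -0.48 (SE 0.18, 95% interval -0.93 to -0.02, unadjusted p = 0.0425, adjusted p = 0.873 in limma). Its values were 5.59, 5.23 and 4.90 in wild-type and 4.89, 4.66 and 4.74 in null VNOs. The groups only just missed each other, since the lowest wild-type and the highest null value were nearly equal. Dnah7a has near-identical copies, Dnah7b and Dnah7c, so its own value is uncertain. Dnah10, in the 2-headed inner arm with Dnah2, differed by -0.38, Dnah6 by -0.35, Dnah1 by -0.26, Dnah2 by -0.12 and Dnah14 by -0.05. For Dnah2 a second, dimmer probe set gave 0.11, so its probe sets disagreed in direction.

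Radial spokes were represented by 7 genes, all lower in mean, with a median of -0.30. Rsph3a, a spoke stalk protein, had the smallest p of the 55 genes, 0.00537 before adjustment and 0.803 after it in limma. It stood at 6.10, 6.16 and 6.27 in wild-type and at 5.94, 5.88 and 5.81 in null VNOs. The groups did not overlap, and the difference was -0.30 (SE 0.07, 95% interval -0.47 to -0.13). A second, dimmer probe set of Rsph3a went the other way, from 4.94 to 5.14, and Rsph3a and Rsph3b are near-identical copies, so neither value is certain. The spoke head genes Rsph1, Rsph4a and Rsph9, which serve cilia of the airways, differed by -0.37, -0.33 and -0.38. Rsph9 was highest in wild-type replicate 3, at 8.04 against 7.43 and 7.41 in replicates 1 and 2, the reverse of Rsph1 with 8.66 against 9.56 and 9.37. Rsph14 and Rsph3b differed by -0.14 each and Rsph6a, the sperm counterpart of Rsph4a, by -0.10. Cfap206 and Cfap61, which sit at the base of spokes, differed by -0.23 and -0.20. Of this pair Cfap61 had the smaller p, with 7.19, 7.42 and 6.65 in wild-type and 6.85, 6.90 and 6.90 in null VNOs, so wild-type replicate 3 was the lowest of all arrays.

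Of the genes of the central apparatus with the Cfap name, all 7 were lower in mean, with a median of -0.25, and in 2 of them the genotypes did not overlap. Cfap69, which also serves the sensory cilia of olfactory neurons, stood at 8.20, 8.41 and 8.12 in wild-type and at 7.94, 8.08 and 7.92 in null VNOs. Its difference was -0.26 (SE 0.09, unadjusted p = 0.0353, adjusted p = 0.873 in limma). Cfap47 stood at 6.41, 6.20 and 6.07 against 5.63, 6.03 and 5.91. That is -0.37 (SE 0.14, unadjusted p = 0.0384), and its groups were apart by less than the spread within either. Cfap99 at -0.26, Cfap74 at -0.25, Cfap221 at -0.17, Cfap65 at -0.12 and Cfap46 at -0.06 had overlapping groups. In these 5 genes wild-type replicate 3 was the lowest of all arrays, so that it lay under every null value.

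The 5 genes for the inner arm tether and its adaptors were lower in mean, with a median of -0.26. Cfap43 and Cfap44, which tie an inner arm to the doublet, differed by -0.32 and -0.26. Cfap57 had the smallest p of these 5, with 7.78, 7.87 and 7.12 in wild-type and 7.32, 7.32 and 7.06 in null VNOs, a difference of -0.35 (SE 0.22, adjusted p = 0.873). Cfap73 differed by -0.20. Cfap100 had 5.85, 5.75 and 5.29 in wild-type against 5.32, 5.88 and 5.64 in null VNOs. Its difference of -0.01 was far smaller than its SE of 0.20.

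Doublet inner proteins with the Cfap name numbered 7 and were all lower in mean, with a median of -0.25. Cfap53, which also helps set left-right body asymmetry, stood at 7.15, 7.02 and 6.74 in wild-type and at 6.59, 6.59 and 6.62 in null VNOs. The genotypes did not overlap, and the null arrays lay close together, for a difference of -0.37 (SE 0.11, unadjusted p = 0.0173, adjusted p = 0.873 in limma). Cfap126, Cfap52 and Cfap161 differed by -0.26, -0.25 and -0.25, Cfap45 by -0.21, Cfap20 by -0.12 and Cfap77 by -0.10. Tektins, filament proteins inside the doublets, were lower in mean in 4 of 5 cases, with a median of -0.13. Tekt2 had 6.31, 6.38 and 5.97 in wild-type and 5.76, 5.83 and 6.18 in null VNOs, a difference of -0.30 (SE 0.16, adjusted p = 0.873), and its groups crossed. Its second probe set gave -0.19. Tekt1 differed by -0.20, Tekt4 by -0.13 and Tekt3 by -0.10. Tekt5, a dim tektin known from sperm, was at 4.42, 4.17 and 4.34 against 4.35, 4.34 and 4.31. Its difference, 0.02 (SE 0.08), was the highest of the 55, and it became negative with median centring, quantile normalization or array weights.

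Of the remaining 10 Cfap genes 9 were lower in mean, with a median of -0.21. Cfap58, a protein of the axoneme in sperm, had 6.22, 6.17 and 5.85 in wild-type and 5.45, 5.73 and 5.87 in null VNOs, a difference of -0.40 (SE 0.15, unadjusted p = 0.0396, adjusted p = 0.873 in limma). Only wild-type replicate 3 and null replicate 3 crossed. Cfap299 was at 8.07, 7.89 and 7.29 against 7.16, 7.55 and 7.40, or -0.38 (SE 0.22). Cfap36, a coiled-coil protein that binds a ciliary GTPase, was nearly the same on all arrays of a genotype, with 8.86, 8.86 and 8.87 in wild-type and 8.72, 8.70 and 8.68 in null VNOs. Its groups did not overlap, yet the difference was small at -0.16 (SE 0.05, unadjusted p = 0.0140, adjusted p = 0.873). Cfap70, linked to outer arms, differed by -0.27, and Cfap298, a dynein assembly factor, by -0.26. Cfap97d2 differed by -0.29, Cfap410 by -0.13, Cfap97d1 by -0.08 and Cfap97 by -0.03. Cfap20dc stood at 6.47, 6.36 and 6.40 against 6.33, 6.34 and 6.57, a difference of 0.00 (SE 0.08) whose sign turned with median centring, quantile normalization, cyclic loess and array weights.

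The arrays of 1 genotype differed more for these genes than for most. The median SD over the wild-type arrays was 0.29 for the 55 genes and 0.125 for all genes, while over the null arrays it was 0.10 and 0.11. In 46 of 55 genes (83.6%) wild-type replicate 3 was the lowest wild-type array, which held for 30.2% of all genes. In 43 genes wild-type replicates 1 and 2 both lay above every null array, against 1988 of all 22180 genes. In 48 wild-type replicate 3 did not lie above every null array, which also held for 15970 of the 22180. The mean signal of the 55 genes was 6.98, 6.97 and 6.55 in wild-type replicates 1, 2 and 3 and 6.53, 6.65 and 6.66 in the null replicates. Wild-type replicate 3 thus stood among the null arrays, and null replicate 1 was the lowest of its group.

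**Figure D2:**
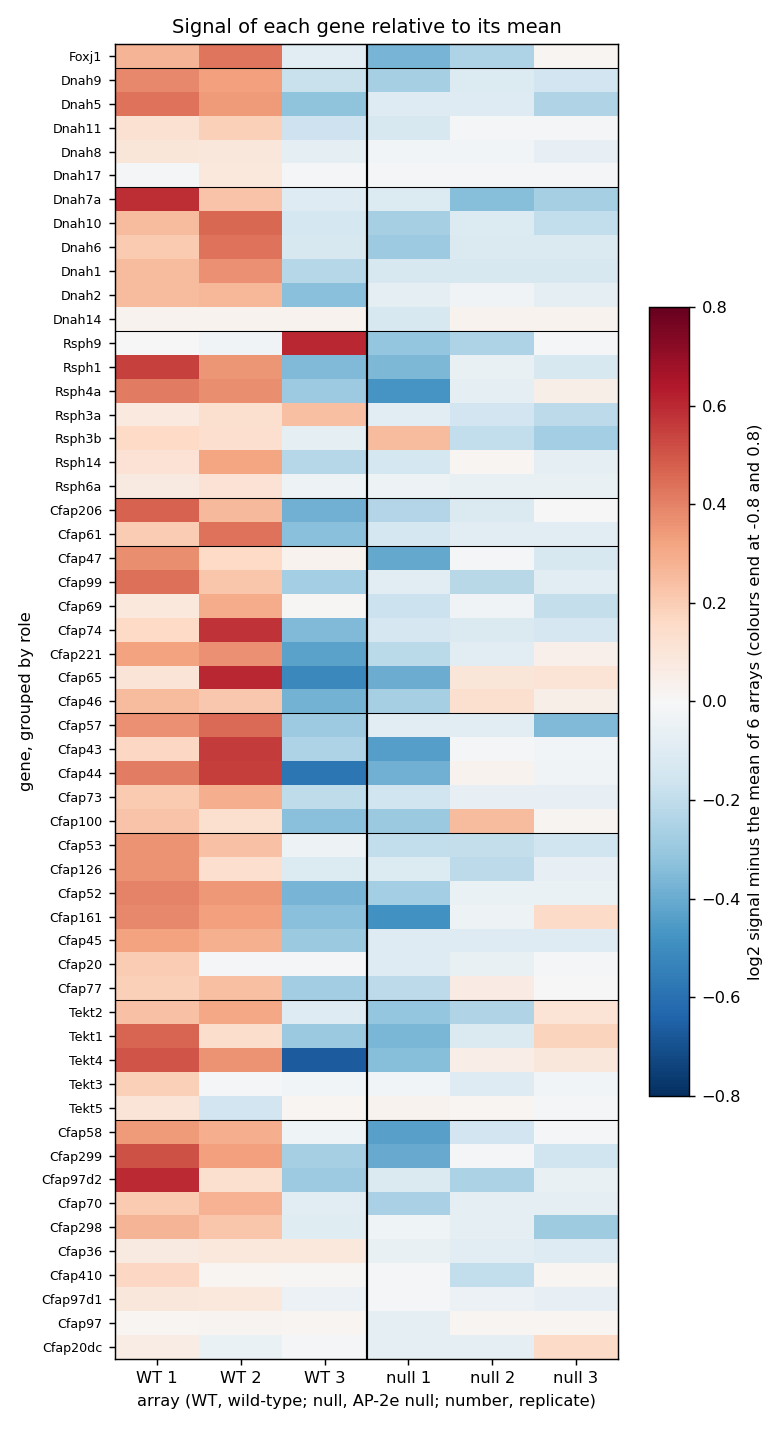
Log2 signal of each axoneme gene on each of the 6 arrays minus the gene's mean over all arrays, with red above and blue below that mean and genes grouped by role. Wild-type replicates 1 and 2 are red for most genes, and wild-type replicate 3 is blue for most, with Rsph9 and Rsph3a among the exceptions.

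The genes moved together from array to array. Pearson's r between a gene and the mean of the other 54, over 6 arrays, had a median of 0.883 and was over 0.9 for 25 genes. After each genotype's mean was taken away the median was 0.870, so the genes moved together within genotypes as well. These values describe genes read on the same arrays and carry no test. The highest was that of Dnah9 (0.988), followed by Cfap73 (0.984), Rsph1 (0.982) and Cfap52 (0.981), and Foxj1 reached 0.909. It was under 0.5 for 6 genes, Tekt5 (-0.245), Rsph9 (-0.133), Cfap20dc (0.183), Rsph3a (0.269), Rsph3b (0.304) and Dnah14 (0.462). Cfap36 (0.525) and Rsph3a, which had the smallest p of all, thus did not follow the shared pattern, and within genotypes they ran against it, at -0.476 and -0.896.

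Leaving out single arrays moved the size of the differences. Without wild-type replicate 3 the median difference was -0.41, 54 of the 55 genes were lower and 38 had an unadjusted p under 0.05, against 4.09% of all genes lower at that level. Still 0 passed in limma, with a smallest adjusted p of 0.159, for Cfap45. Without wild-type replicate 1 the median was -0.12, with 50 genes lower and 3 at an unadjusted p under 0.05, against 2.36% of all genes lower at that level. Without wild-type replicate 2 it was -0.15, with 50 lower and 2 at that level, against 2.95% of all genes. Without null replicate 1 it was -0.18, with 48 lower and 3 at that level, against 2.79%. Few genes were thus at that level with any of these 3 arrays left out. Without null replicate 2 or 3 the median was -0.22 and -0.25, with 53 and 54 lower. Then 4 and 6 genes were at that level, against 2.02% and 2.55% of all genes.

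**Figure D3:**
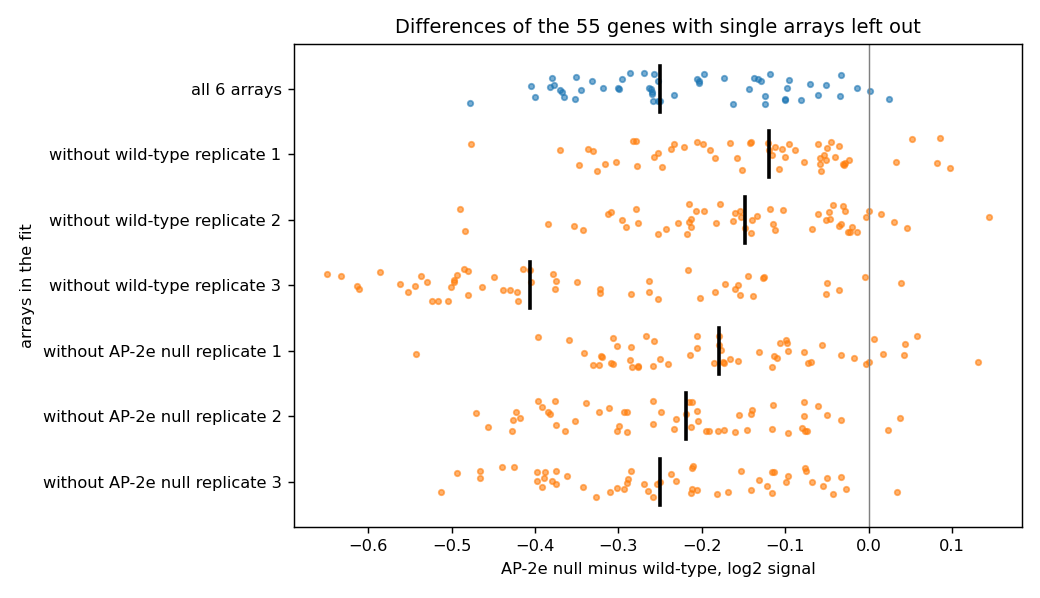
Difference between AP-2e null and wild-type VNOs in log2 signal for the 55 axoneme genes (points, spread vertically at random) with all arrays and with each array left out. The vertical bars are medians, -0.25 with all arrays, -0.41 when wild-type replicate 3 is left out and -0.12 when replicate 1 of that genotype is.

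Most cilia genes outside the naming rule had lower means as well. Of 109 measured, 0 passed in limma, 96 (88.1%) were lower in mean, against 50.2% of all genes, and the median difference was -0.17. There were 7 lower and 0 higher at an unadjusted p under 0.05, against 2.49% and 1.9% of all genes. The 109 include 30 intraflagellar transport and BBSome genes, which other cilia use too, and 4 of the 7. Without these 30, 70 of 79 were lower (median -0.19) and 3 were at that level. Without wild-type replicate 3 the median of the 109 was -0.23 and 49 had an unadjusted p under 0.05, in either direction, against 6.61% of all genes. All 14 markers of multiciliated cells were lower in mean (median -0.29). The 3 with the smallest p were Ccdc153 at -0.44, Tmem212 at -0.33 and Pifo at -0.53, the most negative of the list. Without wild-type replicate 3 their median was -0.54, and without replicate 1 it was -0.13.

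The structural lists gave similar values. All 5 outer arm docking genes were lower (median -0.28), with Efcab1 (calaxin) at -0.33, Ttc25 at -0.31 and Armc4 at -0.28. The nexin-dynein regulatory complex, the link between doublets, was lower in 11 of 11 genes (median -0.26), with Fbxl13 at -0.35, Drc7 at -0.26 and Gas8 at -0.12. The central pair was lower in 8 of 8 (median -0.23), with Spef1 at -0.30, Hydin at -0.28 and Spag6 at -0.20. Doublet inner proteins without the Cfap name were lower in 9 of 9 (median -0.16), with Saxo2 at -0.40, Enkur at -0.29 and Ribc1 at -0.20. Dynein light and other chains were lower in 4 of 5 (median -0.27), with Dynlrb2 at -0.35, Nme8 at -0.27 and Dnal1 at -0.14, and assembly factors in 10 of 12 (median -0.15), with Wdr92 at -0.25, Dnaaf4 at -0.25 and Ruvbl1 at -0.20.

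Regulators and shared transport genes had smaller medians. The 15 genes of transcription and centriole amplification had a median of -0.03 with 9 lower, and Rfx3, an RFX factor of ciliated cells, differed by -0.11, Trp73 by -0.19 and E2f5 by 0.15. Intraflagellar transport and BBSome genes, which build primary and sensory cilia as well, had a median of -0.09 with 26 of 30 lower. Of these 4 were lower at an unadjusted p under 0.05, against 2.49% of all genes, with Dync2li1 at -0.28, Bbs5 at -0.25 and Bbs12 at -0.25. Their list mean was 7.81, 7.79 and 7.76 in wild-type and 7.64, 7.70 and 7.70 in null VNOs, so the mean of wild-type replicate 3 stayed above the null arrays. Gene by gene, wild-type replicate 3 did not lie above every null array in 22 of the 30. The share over all genes was similar, at 15970 of 22180. Differences between these lists were not tested.

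Markers of other cells were measured on the same arrays, and limma passed 0 of them. Respiratory secretory markers had a list mean of 9.31, 9.52 and 8.85 in wild-type and 9.24, 9.02 and 9.06 in null VNOs. Their mean was thus lowest of all arrays on wild-type replicate 3, where the axoneme mean was lowest among wild-type arrays only. Of 11, 7 were lower in mean (median -0.16). Spdef at -0.42 and Agr2 at -0.32 had the smallest p, and Bpifb1 at 0.44 and Bpifa1 at 0.20 were among the 4 higher ones. Spdef itself was highest on wild-type replicate 3, at 7.06. All 5 basal epithelial markers were lower in mean (median -0.25), with Krt15 at -0.56 and Dlk2 at -0.24, and their list mean was 7.58, 7.28 and 6.89 against 6.56, 7.34 and 6.94. It was lowest on null replicate 1, as for the axoneme genes.

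List means of vomeronasal neuron markers ran the other way on wild-type replicate 3. The mature vomeronasal list was lower in mean in 4 of 5 genes (median -0.10), from Omp and Ano2 at -0.41 and -0.40 to Ano1 at 0.06. It had list means of 8.49, 8.505 and 8.66 in wild-type and 8.36, 8.33 and 8.42 in null VNOs. The basal neuron list, with Calr4 at -1.10 and Gnao1 at -0.68, had 9.51, 9.47 and 9.70 against 9.05, 8.95 and 9.05. Both were highest on wild-type replicate 3. On null replicate 1, where the axoneme mean was lowest, the mature and basal lists stood at 8.36 and 9.05. The apical list, with Meis2 at 0.26 and Kirrel2 at -0.35, had 9.63, 9.67 and 9.81 against 9.70, 9.63 and 9.74. Single genes differed from their list. Gng8 of the basal list and Meis2 were lowest of all arrays on wild-type replicate 3, at 9.46 and 10.37. Gnai2, Ano1 and Cnga4 were not highest there. Olfactory neuron markers ranged from 5.85 on wild-type replicate 1 to 7.71 on wild-type replicate 2 and from 6.27 to 7.41 on null arrays, with Cnga2 at 0.75 and Cngb1 at -0.15. This list did not follow the axoneme genes.

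Markers of tissue from beside the epithelium varied between arrays too. Cartilage markers stood at 8.04 on null replicate 2 and between 5.55 and 5.91 elsewhere, with Matn1 at 1.15 and Hapln1 at 0.81. Skeletal muscle markers ranged from 5.32 to 6.09 in wild-type and 5.09 to 5.46 in null VNOs, with Myh4 at -1.17 and Mylpf at -0.41. The list mean of neutrophil markers was lowest on wild-type replicate 3, at 6.78 against 7.35 to 8.01 on the other arrays. That replicate was the lowest wild-type array for 4 of the 6 markers. Mpo differed by 0.62 and Elane by 0.59, and both were lowest on wild-type replicate 2, at 5.80 and 5.35. Spermatid markers lay between 5.15 and 5.28 on every array, with Tnp2 at -0.22 and Prm1 at 0.17. The part of each of these cell types in the axoneme differences was not tested.

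**Figure D4:**
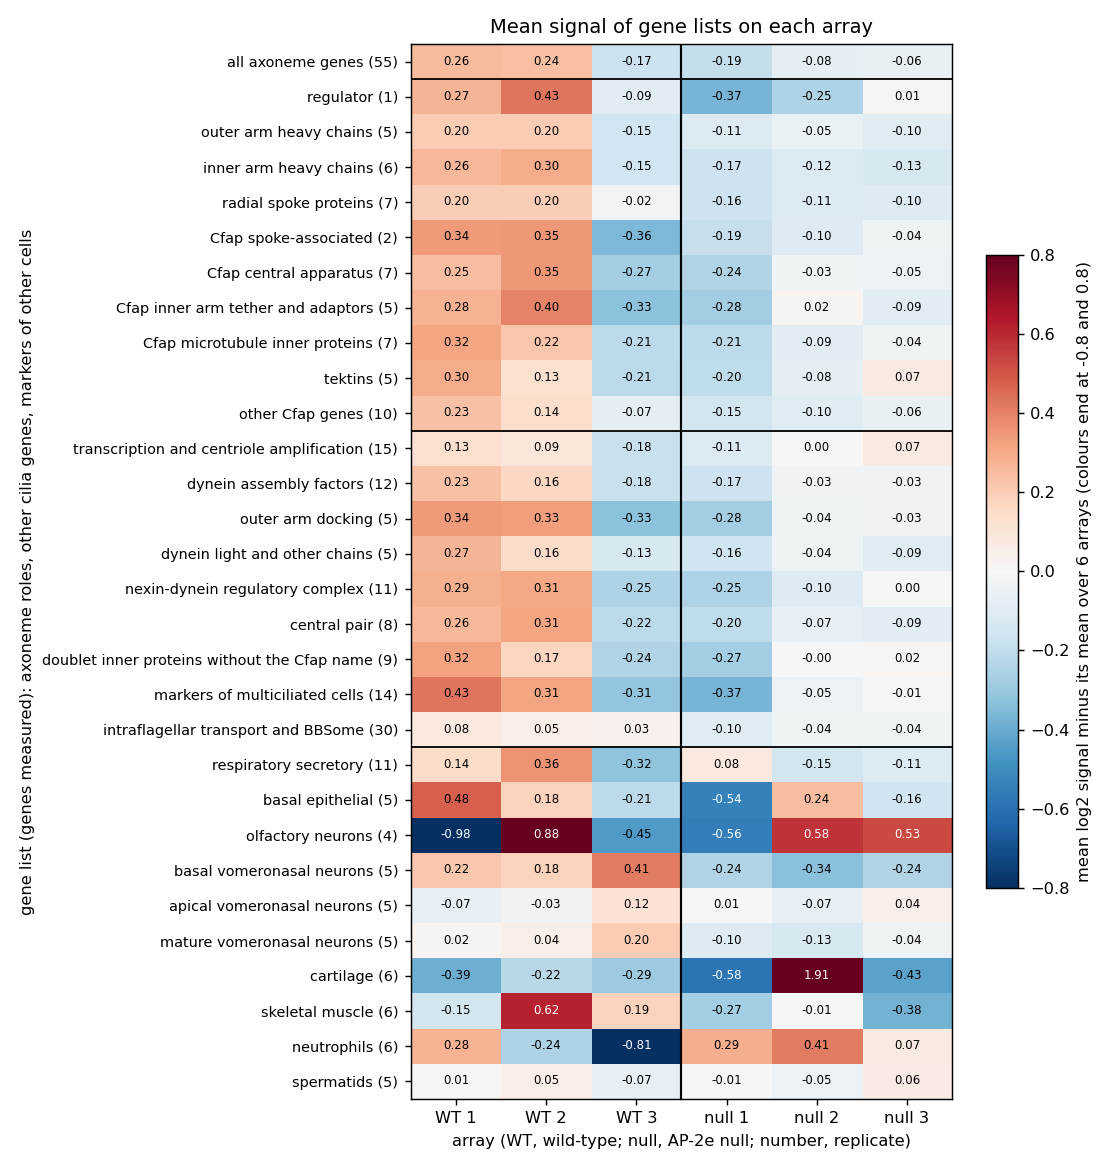
Mean log2 signal of each gene list on each array minus the list's mean over the 6 arrays, for the axoneme genes and their roles (top), other cilia genes (middle) and markers of other cells (bottom), with the number of genes in parentheses. The axoneme genes stand at 6.98 and 6.97 on wild-type replicates 1 and 2 and at 6.55 on replicate 3 before centring, most cilia lists show that pattern, and the vomeronasal neuron lists do not.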

How the data were processed

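RNA of 6 vomeronasal organ samples was measured on 1 Affymetrix array each. The deposited table holds log2 signals per probe set, and the submitters' processing notes name RMA, a method for background correction, quantile normalization and probe summary, and the Transcriptome Analysis Console, with settings not given in the sources used here. Of 41345 probe sets, 23521 carried 1 gene in the platform annotation. The probe set with the highest mean stood for each gene, which gave 22180 genes. Genotypes and replicate numbers came from the titles. limma 3.58.1 (under R 4.3.3, with lmFit, eBayes and 2-sided p, without covariates) compared the genotypes across all genes with Benjamini-Hochberg adjustment, and adjusted p under 0.05 passed. On simulated arrays of this comparison with 22180 genes, 89 of 100 genes with a true log2 change of 1 and 96 of 100 with a change of 2 were recovered, and 9 unchanged genes were called. Changes under 1 were not simulated. Plots were drawn with matplotlib 3.10.9.

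Members and gene lists were chosen with earlier results of these data known. Values on every array are given for Foxj1, the 6 members with the smallest p, the 4 most negative and 4 most positive differences, and the smallest p of each role. Up to 3 genes are named from each other cilia list and up to 2 from each list of other cells, by smallest p, and names outside these limits were chosen after values were seen. Promoter windows came from RefSeq (GRCm38.p6). Windows whose 250 bases before the start overlapped a RefSeq gene, or held no half-site, were not shown, a condition added after the sequences were seen. Alternatives were other moderation, averaged probe sets, removal of the 30% of genes with the lowest means, median centring, quantile normalization, cyclic loess, array weights, a replicate block and each array left out.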

Additional observations from a re-analysis of the deposited data

How the results depend on the processing

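In all 14 alternatives (8 other settings and 6 with an array left out) 0 axoneme genes passed and 0 of the cilia genes outside the naming rule did. The number with lower means was 53, 53, 47 (of 48 kept by the filter), 55, 55, 54, 55 and 53 under trend and robust moderation, averaged probe sets, the dim filter, median centring, quantile normalization, cyclic loess, array weights and the replicate block. Their median differences lay between -0.30 (array weights) and -0.23 (averaged probe sets). Median centring put 62.0% of all genes lower in place of 50.2%. The genes at an unadjusted p under 0.05, a count added after values were seen, went from 7 to 13 with median centring and 19 with array weights, while the share of all genes lower at that level went from 2.49% to 3.73% and 3.54%.

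Differences of 13 named genes kept their sign throughout, though that of Rsph3a shrank to -0.05 with averaged probe sets. Cfap20dc turned to -0.0334 with median centring, -0.0185 with quantile normalization, -0.0061 with cyclic loess and -0.0164 with array weights, and lay between -0.0753 and 0.043 with arrays left out. Tekt5 turned to -0.0109, -0.0057 and -0.0003 with median centring, quantile normalization and array weights, and lay between -0.047 and 0.0819 with arrays left out. Cfap100 and Dnah17 lost their sign only with arrays left out, where they lay between -0.1846 and 0.1305 and between -0.0497 and 0.00. The cause was not tested.

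Same-numbered arrays had deviations that correlated at 0.040, 0.110 and 0.019, and differently numbered ones at -0.193 to 0.122. No pairing by number was thus seen, though such values from 3 arrays per genotype cannot exclude it. The labels do not say whether the numbers pair the samples. The replicate block gave a median of -0.25 and 0 passing genes. Background correction could not be varied.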

Other observations

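Cfap300, the gene left out by the naming rule, stood apart from the 55 axoneme genes. It was at 10.18, 10.01 and 10.05 in wild-type and at 9.09, 8.98 and 8.91 in null VNOs, and wild-type replicate 3 did not lie near the null arrays. It passed in limma, with a difference of -1.09 (95% interval -1.27 to -0.90, adjusted p = 0.00996) that lay below the most negative one among the axoneme genes, -0.48 for Dnah7a. That difference between genes was not tested.

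Axoneme genes with an RFX half-site in their promoter window had a median difference of -0.25 (16 genes), and those without had -0.21 (31 genes). The same value stood on more than 1 array for 23 of the 55 genes (41.8%) and for 53.7% of all genes. Cfap45, for example, was at 7.55 on all 3 null arrays.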
